A study of Homo sapiens with 8 samples.

Results

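A set of 10 genes of collagen folding in the endoplasmic reticulum (ER) was followed: SERPINH1, P4HA1, P4HA2, P4HB, PLOD1, PLOD2, PLOD3, FKBP10, PPIB and P3H1. They were chosen by name as the collagen chaperone and the enzymes that work on the same chains, with earlier results of these data known. Every probe set annotated to 1 of them and to no other gene was taken. This gave 17 of 41091 probe sets with a single gene symbol and 10 of 19775 genes. All 10 genes, by their brightest probe set, and 15 of the 17 probe sets passed the filter on low signals, which kept 12672 genes and 24631 probe sets in all. RNA of A375, a human melanoma cell line, was hybridised to 8 arrays of the type HG-U133 Plus2, in 4 groups of 2. The shHSF1 cells carried the Doxycycline-inducible hairpin sh1999 against HSF1, and the shNTC cells carried an inducible non-targeting hairpin. The groups were shHSF1 cells with Doxycycline (Dox, 100 ng/mL for 3 days) and then the HSP90 inhibitor NVP-HSP990 (100 nM for 3 h), shHSF1 cells with NVP-HSP990 and no Dox, shNTC cells with Dox and DMSO (0.1% for 3 h), and shNTC cells with DMSO and no Dox. The sample titles gave the presence of Dox, while the growth protocol names it for all lines without separating the groups. A single hairpin stood for the knockdown. Both NVP-HSP990 groups were shHSF1 cells and both DMSO groups were shNTC cells, so the inhibitor and the line cannot be told apart in any comparison across the lines. Whether replicate arrays stem from separate cultures is not stated, so p-values here reflect the array-to-array spread alone, and this spread may be technical.

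Collagen chains are modified, folded and checked inside the ER before they leave the cell. Prolyl 4-hydroxylases, made of an alpha subunit and the disulfide isomerase P4HB, add the hydroxyl groups that make the triple helix stable at body temperature. Lysyl hydroxylases of the PLOD family modify lysines that later carry sugars and crosslinks, and P3H1, PPIB and FKBP10 act on prolines or on their turn from cis to trans. SERPINH1, also called HSP47, is a serpin without protease inhibition that binds the folded triple helix and accompanies it towards the Golgi. HSF1 is the main transcription factor of the heat shock response, and inhibitors of HSP90 are known to activate it. SERPINH1 is a known heat shock gene of the ER. In contrast, most ER chaperones belong to the unfolded protein response.

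The values are MAS5 signals as the authors deposited them, linear and scaled to the same trimmed mean of 150 per array, and the median probe set of an array lay at 10.6 to 14.2. Changes are given on the scale of log2(signal + 16), where the 16 shrinks the changes of dim genes, and the threshold for a call was an adjusted p under 0.05 from limma over all genes tested. HSF1 itself had signals of 5.5 and 7.3 in shHSF1 Dox HSP990 cells, below the median of their arrays, against 99 and 42.5 in shHSF1 HSP990 cells. ACTB probe sets at the 3-prime end, divided by those at the 5-prime end, gave a ratio that tends to rise as RNA degrades. This ACTB ratio was 46.8 on the second shNTC Dox DMSO array and 4.73 to 18.9 on the other 7. The melanocyte markers MITF and SOX10 were measured, while PMEL, MLANA, TYR and TYRP1 lay below the median on all 8 arrays. The 4 markers of dedifferentiated melanoma on the array were all measured. Of the type I and type III fibrillar chains, COL1A2 (1.7 to 9.7) and COL3A1 (0.3 to 8.9) lay below the median on every array, and COL1A1 had signals of 55.8 to 117. In bulk RNA, fewer cells expressing a gene and less RNA per cell cannot be told apart.

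SERPINH1 had the largest change of the 10 genes, both with the knockdown and with NVP-HSP990. SERPINH1 had a single probe set (207714_s_at), so no other could be compared and averaging probe sets left its change as it was. Its signals were 38.8 and 40.1 in shHSF1 Dox HSP990 cells, against 204.7 and 243.3 in shHSF1 HSP990 cells. They were 87.9 and 72 in shNTC Dox DMSO cells and 83.3 and 71.4 in shNTC DMSO cells. The shHSF1 HSP990 arrays were the highest of the 8, the shHSF1 Dox HSP990 arrays the lowest, and no array of a group with NVP-HSP990 fell within the range of the 4 DMSO arrays. With the knockdown, that is shHSF1 Dox HSP990 against shHSF1 HSP990 cells, the geometric mean signal was 0.177 of that without Dox. On the log2 scale SERPINH1 fell by 2.11 (95% interval -2.55 to -1.67, standard error 0.20, limma adjusted p = 0.000579, 2 arrays each), the 11th lowest change of 12672 genes. The call held with each of the 8 arrays left out in turn (-2.23 to -1.99, adjusted p = 0.00156 to 0.00531). It was lost only with the methods' t-test (adjusted p = 0.324), which called 0 genes after adjustment.

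With NVP-HSP990, that is shHSF1 HSP990 against shNTC DMSO cells, the SERPINH1 signal was 2.89 times as high. It rose by 1.36 (standard error 0.20, 95% interval 0.92 to 1.80, adjusted p = 0.0282), the 17th highest change of 12672. The call was lost without the first or the second shNTC DMSO array (1.45 and 1.27, adjusted p = 0.226 and 0.489), without the first or the second shHSF1 HSP990 array (1.48 and 1.24, adjusted p = 0.0665 and 0.262) and with no filter on low signals (adjusted p = 0.0834). Dox in shNTC cells gave a log2 change of 0.04 (95% interval -0.41 to 0.48, adjusted p = 1). The Dox effect in shHSF1 cells under NVP-HSP990 less the Dox effect in shNTC cells under DMSO was -2.15 (standard error 0.28, adjusted p = 0.0116), so the difference itself passed the test. Without the first or the second shNTC DMSO array it was -2.24 and -2.06 (adjusted p = 0.0574 and 0.0792).

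In shHSF1 Dox HSP990 cells SERPINH1 was also lower than in shNTC Dox DMSO cells, at 0.496 of their signal. The log2 change was -0.79 (standard error 0.20, adjusted p = 0.0476). This call was lost with any 1 array left out (-0.91 to -0.67, adjusted p = 0.0527 to 0.173), with no filter (adjusted p = 0.094) and with only the arrays of the comparison (adjusted p = 0.0966). The change was -0.47 with 64 added before the log (adjusted p = 0.0818). In order of level, the shHSF1 HSP990 cells came first, the 2 shNTC groups next, and the shHSF1 Dox HSP990 cells last. The 2 shNTC groups overlapped and did not differ beyond their spread.

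**Figure D1:**
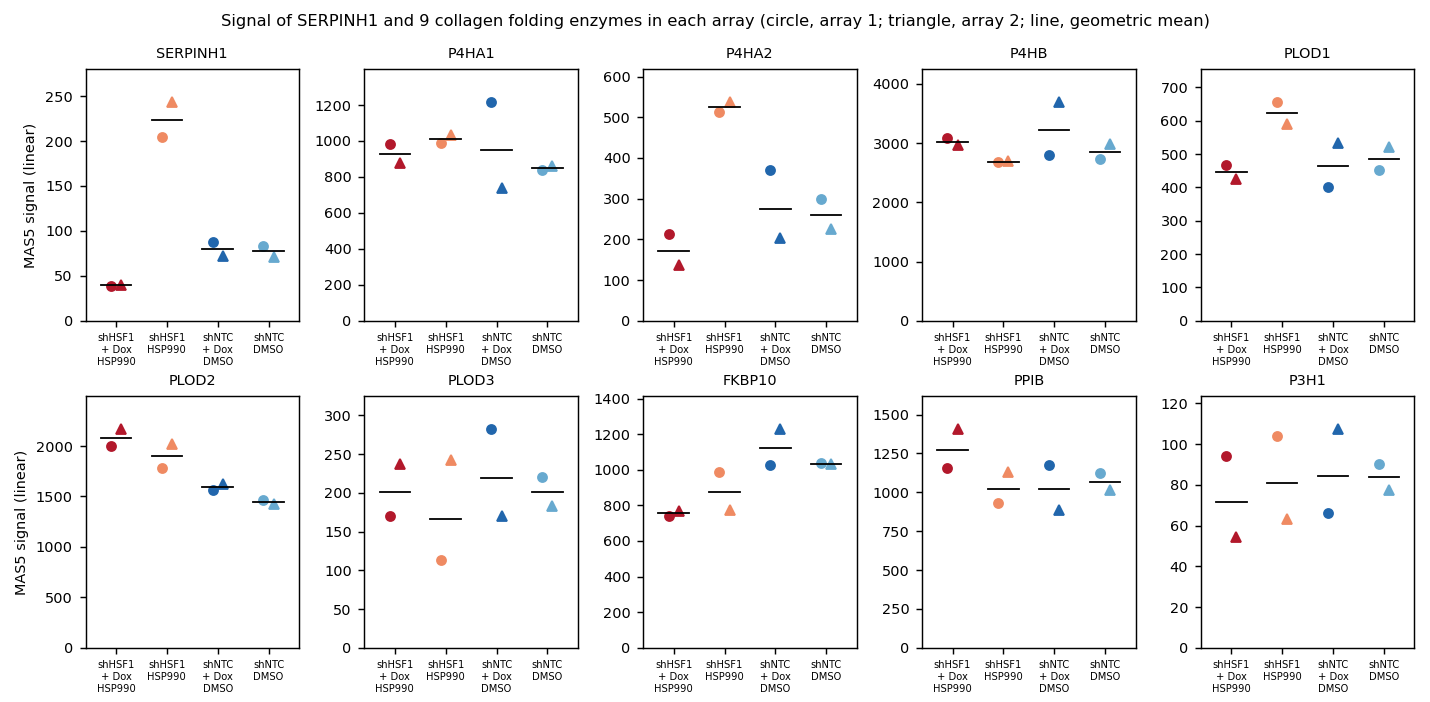
MAS5 signal (linear, from 0) of the brightest probe set of each of the 10 genes in the 4 groups, with a point per array and a line at the geometric mean of the 2 arrays. SERPINH1 and P4HA2 have their highest 2 signals in shHSF1 HSP990 cells (204.7 and 243.3, 512.3 and 537.2) and low signals with the knockdown (38.8 and 40.1, 212.5 and 136.8).

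The promoter of SERPINH1 is shown because heat shock factors bind heat shock elements, in which GAA alternates with its reverse complement TTC. The gene lies at chr11:75562253-75572783 on the plus strand (RefSeq, GRCh38.p14). The 250 bases before its first annotated start, chr11:75562003-75562252, hold a match to an element of 3 units, TTCNNGAANNTTC, at positions -76 to -64 from the start. The 3 units are in capitals.
SERPINH1, before the first start: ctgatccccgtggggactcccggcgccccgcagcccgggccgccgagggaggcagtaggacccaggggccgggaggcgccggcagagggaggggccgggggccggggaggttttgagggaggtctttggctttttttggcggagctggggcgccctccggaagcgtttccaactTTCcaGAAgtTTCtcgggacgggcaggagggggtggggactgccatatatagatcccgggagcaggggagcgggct
A 3-unit match on either strand was present in 172 of 35116 promoter windows of the same length (250 bases before and 50 after a start), or 0.49%. It was the only 3-unit match among the 9 members with a window. It was not in the window of the second annotated start of SERPINH1, which overlaps the first. A match is a description of the letters and not a measured binding site.

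Of the prolyl 4-hydroxylase subunits, P4HA2 was called lower with the knockdown, and P4HA1 and P4HB were not called. P4HA2, an alpha subunit and so a catalytic part of the enzyme, had signals on its brightest probe set (1568611_at) of 212.5 and 136.8 in shHSF1 Dox HSP990 cells, against 512.3 and 537.2 in shHSF1 HSP990 cells. In shNTC Dox DMSO cells they were 369.3 and 202.5, and in shNTC DMSO cells 299.5 and 226.3. The 2 shHSF1 HSP990 arrays were above the other 6, and the arrays with the knockdown lay below the shNTC DMSO arrays and overlapped the shNTC Dox DMSO arrays. With the knockdown P4HA2 fell by 1.53 (standard error 0.28, 95% interval -2.15 to -0.91, adjusted p = 0.0177), the 43rd lowest change of 12672 genes. The call was lost without the first or the second shHSF1 HSP990 array (-1.57 and -1.50, adjusted p = 0.0646 and 0.0601) and without the second shHSF1 Dox HSP990 array (-1.24, adjusted p = 0.114). With the mean of all its probe sets the change was -0.76 (adjusted p = 0.0733).

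The second P4HA2 probe set (202733_at) ran the same way with a smaller change. Its signals were 207 and 147.9 in shHSF1 Dox HSP990 cells, against 400.4 and 315.5 in shHSF1 HSP990 cells. They were 194.9 and 247.7 in shNTC Dox DMSO cells and 227.6 and 184 in shNTC DMSO cells. Here too the shHSF1 HSP990 arrays were the highest 2. The log2 change with the knockdown was -0.96 (standard error 0.22), which missed the threshold over all probe sets (adjusted p = 0.0609). The dimmest probe set (1555027_at) had signals of 0.3 to 7.3, below the median on all arrays, and was not tested. Where each probe set lies in the transcript is not given in the sources used here.

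With NVP-HSP990 the change of P4HA2 was 0.97 on the brightest probe set and 0.75 on the second. The first had an unadjusted p of 0.00593 and an adjusted p of 0.507, and the second an adjusted p of 0.685, so neither was called. The 95% interval of the first ran from 0.35 to 1.59. This difference of the Dox effects was -1.60 for P4HA2 (adjusted p = 0.123). The replicate number as a block gave the same value with an adjusted p of 0.0305.

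P4HA1, the other alpha subunit among the members, had signals of 981.4 and 879.1 in shHSF1 Dox HSP990 cells, against 989.6 and 1033.9 in shHSF1 HSP990 cells. They were 1216.1 and 738.1 in shNTC Dox DMSO cells and 838.3 and 863 in shNTC DMSO cells. The highest and the lowest signal of the 8 arrays both came from shNTC Dox DMSO cells. The log2 change was -0.12 with the knockdown (95% interval -0.58 to 0.34) and 0.25 with NVP-HSP990 (95% interval -0.22 to 0.71), and neither was called. Its second probe set (243335_at) had signals of 0.3 to 4.3 and was not tested. The difference between the changes of P4HA1 and P4HA2 was not tested.

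P4HB, the beta subunit, also works as a free protein disulfide isomerase. On its brightest probe set (200654_at) the signals were 3087.9 and 2967.9 in shHSF1 Dox HSP990 cells, against 2681.6 and 2698.6 in shHSF1 HSP990 cells. In shNTC Dox DMSO cells they were 2806.5 and 3693.1, and in shNTC DMSO cells 2732.8 and 2981.7. The arrays with the knockdown lay above those without it, by less than the spread between the shNTC Dox DMSO arrays. The log2 change was 0.17 with the knockdown (95% interval -0.22 to 0.56) and -0.09 with NVP-HSP990 (95% interval -0.48 to 0.31).

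The 3 probe sets of P4HB differed in their spread between arrays of a group. On 1564494_s_at the signals were 47.5 and 124.1 in shHSF1 Dox HSP990 cells, 31.9 and 62.6 in shHSF1 HSP990 cells, 135.8 and 20.2 in shNTC Dox DMSO cells and 79 and 41.9 in shNTC DMSO cells. Over the 8 arrays they ran in exactly the reverse order of the ACTB ratio: in all 28 pairs of arrays, the one with the higher ratio had the lower signal. Of 24631 probe sets, 11 (0.0447%) did so. On 200656_s_at this held for 26 of 28 pairs, a count reached or passed by 0.958% of probe sets. On 200654_at it held for 12, beside a median of 15 over all probe sets. Among the other members it held for 24 pairs for the brightest PPIB probe set, 23 for PLOD3, 15 for the brightest P4HA2 probe set and 14 for SERPINH1. It held for 5 for P3H1 and 4 for PLOD1, which ran the other way. The part of the RNA in these differences was not tested. With the ratio as a covariate, SERPINH1 had a log2 change of -2.17 with the knockdown (adjusted p = 0.00267) and P4HA2 of -1.67 (adjusted p = 0.0236).

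**Figure D2:**
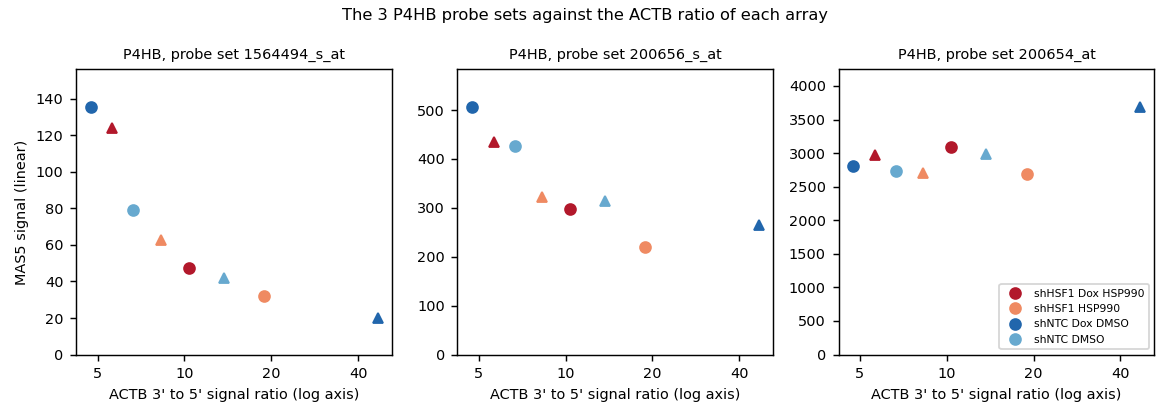
MAS5 signal (linear, from 0) of the 3 P4HB probe sets against the ACTB 3-prime to 5-prime ratio (log axis) of each of the 8 arrays, coloured by group, with circles for the first and triangles for the second array of a group. On 1564494_s_at the signal is 135.8 at the lowest ratio (4.73) and 20.2 at the highest (46.8), with every array in order, while on 200654_at there is no such order.

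The lysyl hydroxylases did not pass the threshold in any comparison. PLOD1, which acts on lysines within the helix, had signals of 466.9 and 423.8 in shHSF1 Dox HSP990 cells, against 655.6 and 590.7 in shHSF1 HSP990 cells. They were 401.9 and 533.7 in shNTC Dox DMSO cells and 450.8 and 521.2 in shNTC DMSO cells. The shHSF1 HSP990 arrays were the highest 2 of the 8, as for SERPINH1 and P4HA2. Unlike those genes, PLOD1 mostly rose with the ACTB ratio, being lower at the higher ratio in only 4 of 28 pairs of arrays. The part of the RNA in its changes was not tested. The log2 change was -0.47 with the knockdown (95% interval -0.86 to -0.08, unadjusted p = 0.0219 and adjusted p = 0.215 from limma) and 0.35 with NVP-HSP990 (95% interval -0.04 to 0.74). A 2-unit heat shock element match, GAANNTTC, lay in the PLOD1 window at positions 6 to 13 after the start (GAAGTTTC). Such a match was in 6.77% of all windows.

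PLOD2 acts on the lysines of the telopeptides, the ends of the chain that are later crosslinked. Its brightest probe set (202620_s_at) had signals of 2003 and 2168.1 in shHSF1 Dox HSP990 cells and 1782.8 and 2021.8 in shHSF1 HSP990 cells. They were 1568.1 and 1627.8 in shNTC Dox DMSO cells and 1467.8 and 1423.9 in shNTC DMSO cells. The 4 shHSF1 arrays lay above the 4 shNTC arrays, and the share of all genes that do so was not computed. Its log2 change was 0.13 with the knockdown (95% interval -0.20 to 0.46), 0.39 with NVP-HSP990 (95% interval 0.06 to 0.72, unadjusted p = 0.0248, adjusted p = 0.865) and 0.38 for shHSF1 Dox HSP990 against shNTC Dox DMSO cells (adjusted p = 0.187). The second probe set (202619_s_at) had signals of 161.2 to 381.5, with log2 changes of 0.18 and 0.18 with the knockdown and with NVP-HSP990.

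PLOD3 has both lysyl hydroxylase and glycosyltransferase activity. Its signals were 170 and 236.9 in shHSF1 Dox HSP990 cells, against 113.4 and 242.9 in shHSF1 HSP990 cells. They were 282.4 and 170.3 in shNTC Dox DMSO cells and 221 and 182.9 in shNTC DMSO cells. All groups overlapped, and the lowest and one of the highest signals were both from shHSF1 HSP990 cells. The log2 change with the knockdown was 0.24 with a 95% interval of -0.49 to 0.98, the widest of the 10 genes.

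FKBP10, or FKBP65, is an ER prolyl isomerase that works with SERPINH1 on type I procollagen. Its signals were 740.7 and 769 in shHSF1 Dox HSP990 cells, against 987.6 and 776.2 in shHSF1 HSP990 cells. In shNTC Dox DMSO cells they were 1027.7 and 1228.9, and in shNTC DMSO cells 1036.3 and 1032.1. All 4 shHSF1 arrays lay below all 4 shNTC arrays, and the share of all genes that do so was not computed. The log2 change was -0.21 with the knockdown (95% interval -0.57 to 0.15), -0.24 with NVP-HSP990 (95% interval -0.60 to 0.13) and -0.56 for shHSF1 Dox HSP990 against shNTC Dox DMSO cells (95% interval -0.93 to -0.20, unadjusted p = 0.00593, adjusted p = 0.0783).

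PPIB, or cyclophilin B, and P3H1 form a complex with CRTAP that hydroxylates single prolines in the 3 position. The brightest PPIB probe set (200967_at) had signals of 1153.7 and 1406.3 in shHSF1 Dox HSP990 cells, against 928.8 and 1127.7 in shHSF1 HSP990 cells. They were 1174 and 888.6 in shNTC Dox DMSO cells and 1120.8 and 1015.4 in shNTC DMSO cells. The arrays with the knockdown lay above those without it, and overlapped the shNTC Dox DMSO arrays. The log2 change with the knockdown was 0.31 (95% interval -0.10 to 0.72, adjusted p = 0.482), and 0.18 on the second probe set (200968_s_at), whose signals ran from 637.8 to 912.9. P3H1 had signals of 94.3 and 54.5 in shHSF1 Dox HSP990 cells, against 103.9 and 63.1 in shHSF1 HSP990 cells. They were 66.3 and 107.4 in shNTC Dox DMSO cells and 90.2 and 77.6 in shNTC DMSO cells. The P3H1 groups all overlapped, with a log2 change of -0.14 with the knockdown (95% interval -0.80 to 0.52). CRTAP had signals of 2007.1 and 2241.3 in shHSF1 Dox HSP990 cells, against 1954 and 2249.1 in shHSF1 HSP990 cells (log2 change 0.02, adjusted p = 0.984).

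The members were chosen with earlier results of these data known, so their counts describe them and are not a test of the set. Counted over the 10 genes, 2 were called lower with the knockdown and 0 higher. Over all genes tested, 1.85% were called lower and 2.84% in either direction. At an unadjusted p under 0.05, 3 of 10 passed, beside 15.3% of all genes. Both arrays with the knockdown lay below both without it for 5 members (SERPINH1, P4HA2, P4HA1, PLOD1 and FKBP10), beside 21.8% of all genes, and above for 2 (P4HB and PPIB), beside 21.5%. The median log2 change of the members was -0.13, and -0.12 without SERPINH1, beside 0.0015 over all genes. With NVP-HSP990, 1 member was called higher, beside 0.197% of all genes higher and 0.221% in either direction. Both shHSF1 HSP990 arrays lay above both shNTC DMSO arrays for 5 members, beside 17.6% of all genes, and below for 2, beside 15.6%. The median was 0.11, and -0.03 without SERPINH1, beside 0.0096 over all genes.

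Dox in shNTC cells called 0 members by limma, beside 0% of all genes, with 0 members and 306 genes (2.41%) at an unadjusted p under 0.05. In shHSF1 Dox HSP990 against shNTC Dox DMSO cells, 1 member was called lower, beside 2.99% of all genes lower and 5.83% in either direction, and the median was -0.10. The difference of the Dox effects was called for 1 member, lower, beside 0.481% of all genes lower and 0.789% in either direction. Tested singly over all probe sets, 2 of 15 member probe sets were called with the knockdown, beside 1.88%, and 1 with NVP-HSP990, beside 0.134%. These comparisons share arrays with each other, so their counts are not independent.

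**Figure D3:**
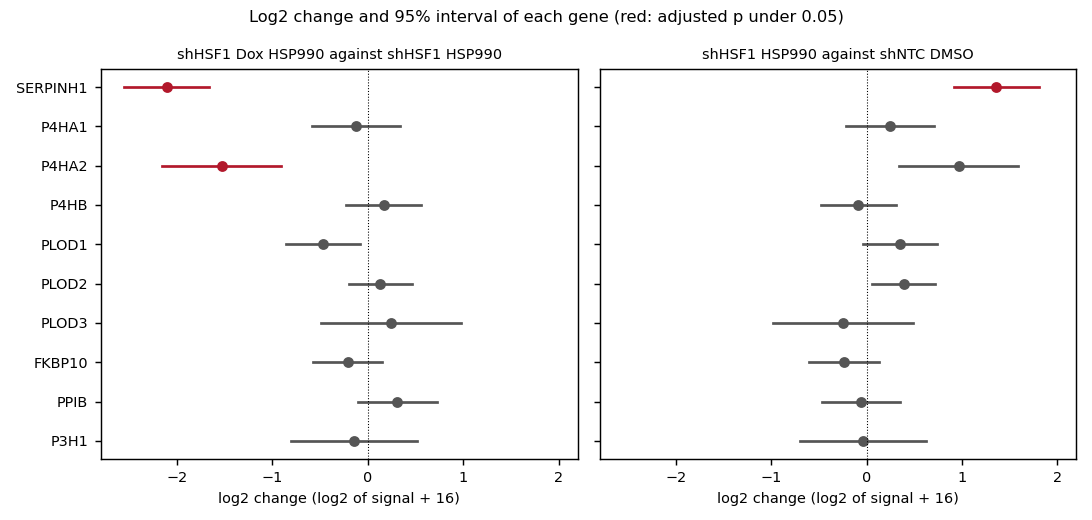
Log2 change (from log2 of signal + 16, horizontal axis) of each gene with its 95% interval, with the knockdown under NVP-HSP990 (left) and for shHSF1 HSP990 against shNTC DMSO cells (right), red where the adjusted p was under 0.05. SERPINH1 lies at -2.11 and 1.36 and P4HA2 at -1.53 and 0.97, while the other 8 lie between -0.47 and 0.39 in both.

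Of the 9 members with a promoter window, 2 held a heat shock element match of 2 units (SERPINH1 and PLOD1). A 3-unit match was held by 1 (SERPINH1), and the 2-unit matches of SERPINH1 are parts of it, so the counts overlap. Of all windows, 6.77% held the 2-unit form GAANNTTC, 7.74% the form TTCNNGAA and 0.49% a 3-unit match. The share of genes with either 2-unit form at any annotated start was not computed. P4HA2, which fell with SERPINH1, had no heat shock element match in its window, chr5:132227042-132227341 on the minus strand (GRCh38.p14). That window lies inside the annotated span of the gene, which ends at 132227853, so other starts were not covered. The core of the hypoxia response element (ACGTG or GCGTG, either strand) was in a window of 7 of the 9 members, or 77.8%, counting either form at any annotated start. Counted the same way, it was in 69.8% of the 10346 genes tested that had a window. The ER stress element (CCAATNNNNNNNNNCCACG) was in 0 of the 9, beside 0.077% of all windows. Among genes tested that had a window, a 3-unit match was found in 5 of 199 genes called lower with the knockdown (2.51%) and in 47 of 10147 others (0.463%). Those 5 were SERPINH1, DNAJA1 and HSPA6, both heat shock chaperones, RBM23 and ZNF83. The difference between these shares of genes was not tested, SERPINH1 itself is counted in the first, and no binding was measured.

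**Figure D4:**
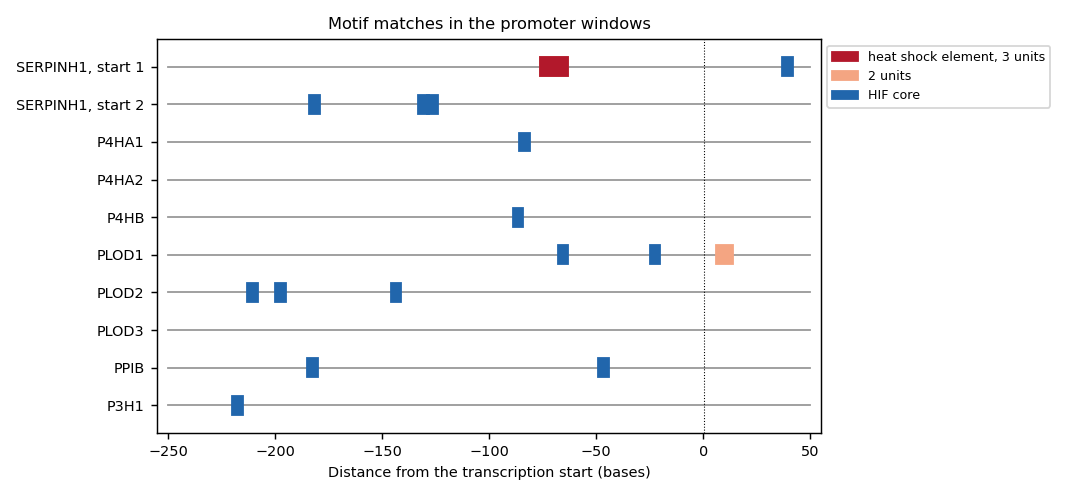
Matches of the heat shock element (red, 3 units; orange, 2 units) and of the hypoxia response core (blue) in the promoter windows of 9 members, by distance in bases from the transcription start (dotted line), with 1 row per annotated start. The 3-unit match of SERPINH1 lies at -76 to -64, and the rows of P4HA2 and PLOD3 hold no match.

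The genes whose log2 values followed SERPINH1 most closely over the 8 arrays were BAG3 (Pearson r = 0.975), P4HTM (0.971), ACTRT3 (0.968), FAM13A (0.965) and USP30 (0.963), out of 12671. The points are arrays of only 4 groups, so these values mostly describe the group levels. BAG3, an HSP70 cochaperone and heat shock gene, had signals of 391.2 and 368.1 in shHSF1 Dox HSP990 cells, against 2510.3 and 2699.5 in shHSF1 HSP990 cells. They were 601.1 and 794.7 in shNTC Dox DMSO cells and 649.1 and 718.7 in shNTC DMSO cells, in the same order of groups as SERPINH1. P4HTM is a transmembrane prolyl 4-hydroxylase of the ER that is known for its action on hypoxia-inducible factor and not on collagen. Its signals were 5.7 and 7.4 in shHSF1 Dox HSP990 cells, 15.7 and 16.4 in shHSF1 HSP990 cells and 8 to 9.3 in shNTC cells. Only the shHSF1 HSP990 arrays, where SERPINH1 was highest, reached the array median. P4HTM passed the filter through these arrays alone, so its place near SERPINH1 is no support for a likeness. Its log2 change of -0.51 with the knockdown was not called (adjusted p = 0.132). In the promoter windows of these 5 genes, 0 held a 3-unit heat shock element. Among the members, P4HA2 came 30th of 12671 (r = 0.925, Spearman 0.881) and PLOD1 followed at r = 0.734. P4HB lay at the other end, at -0.529.

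The other ER enzymes and cofactors of collagen folding gave 1 call with the knockdown, beside 2.84% of all genes called in either direction. Of 11 genes tested, P3H2, a prolyl 3-hydroxylase related to P3H1, rose by 0.79 (adjusted p = 0.0491). Its signals were 446.4 and 414.7 in shHSF1 Dox HSP990 cells, against 280.9 and 208.8 in shHSF1 HSP990 cells. They were 275.2 and 255.6 in shNTC Dox DMSO cells and 293.1 and 254.1 in shNTC DMSO cells. The arrays with the knockdown were above the other 6, and the call was lost with any 1 of the 8 arrays left out (0.59 to 0.99, adjusted p = 0.0501 to 0.20). A further 9 settings lost it as well. The list's median was -0.11. COLGALT1, which adds galactose to hydroxylysine, had signals of 334.9 and 843.8 in shHSF1 Dox HSP990 cells, against 94.7 and 450.1 in shHSF1 HSP990 cells, and ran in reverse to the ACTB ratio in 27 of 28 pairs of arrays. Its log2 change of 1.27 was not called (adjusted p = 0.492).

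The general ER chaperones and oxidoreductases, among them HSPA5 (BiP) and HSP90B1 (GRP94), gave 0 calls of 16 by limma with the knockdown and 0 with NVP-HSP990, with 2 and 2 at an unadjusted p under 0.05. Their medians were 0.14 and 0.02. Of all genes, 2.84% were called in either direction with the knockdown and 0.221% with NVP-HSP990, so counts of 0 say little about such short lists. At an unadjusted p under 0.05 the share of all genes was 15.3% with the knockdown. It is not given here for NVP-HSP990. HSPA5 had signals of 3832.3 and 3942.7 in shHSF1 Dox HSP990 cells, against 3781.2 and 3600.8 in shHSF1 HSP990 cells (log2 change 0.07, not called). The genes of procollagen export from the ER gave 0 calls of 13 with the knockdown and 0 with NVP-HSP990, with 1 and 1 at an unadjusted p under 0.05. With NVP-HSP990 limma called 0 genes in the other lists as well, beside the same 0.221% of all genes.

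Of the 21 collagen chains tested, out of 43 on the array, 2 rose with the knockdown and 0 fell. Of all genes, 2.84% were called in either direction. COL12A1, a chain that associates with fibrils, had signals of 924 and 1017.8 in shHSF1 Dox HSP990 cells, against 450.5 and 529.1 in shHSF1 HSP990 cells. It had 463.9 and 328.5 in shNTC Dox DMSO cells and 503.5 and 417.2 in shNTC DMSO cells. It rose by 0.97 (adjusted p = 0.0255) and was called in shHSF1 Dox HSP990 against shNTC Dox DMSO cells too (1.28, adjusted p = 0.00434). Without the first shHSF1 HSP990 array, the first or the second shHSF1 Dox HSP990 array the knockdown call was lost (0.85, 1.04 and 0.90, adjusted p = 0.137, 0.07 and 0.152), as it was with no filter (adjusted p = 0.0545) and with only the arrays of the comparison (adjusted p = 0.061).

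COL5A1, a type V chain that takes part in starting fibrils, had signals of 518.1 and 475.4 in shHSF1 Dox HSP990 cells, against 207 and 147.5 in shHSF1 HSP990 cells. It had 322 and 144.2 in shNTC Dox DMSO cells and 252.8 and 181.2 in shNTC DMSO cells. It rose by 1.42 (adjusted p = 0.0419), and the call was lost on leaving out any 1 of the 6 arrays that are not shNTC Dox DMSO (1.20 to 1.65, adjusted p = 0.0584 to 0.142), with no filter (adjusted p = 0.0913), with its probe sets averaged (1.31, adjusted p = 0.0665) and with the ACTB ratio as a covariate (1.25, adjusted p = 0.0666). In both chains the arrays with the knockdown were above the other 6, as they were for P3H2. A link to the level of SERPINH1 was not tested. The median over the 21 chains was -0.05. COL1A1 had 85.9 and 84.5 in shHSF1 Dox HSP990 cells, against 117 and 113.7 in shHSF1 HSP990 cells. Its log2 change of -0.38 was not called (adjusted p = 0.428). It had 55.8 and 78.9 in shNTC Dox DMSO cells and 101.3 and 98 in shNTC DMSO cells. Dox in shNTC cells gave -0.49 (unadjusted p = 0.0363 from limma), which was not called either. The difference of the Dox effects was 0.11.

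Of the fibroblast markers, 2 of the 6 tested were higher with the knockdown, beside 2.84% of all genes called in either direction. LUM (0.71, adjusted p = 0.0385) and POSTN (1.17, adjusted p = 0.0131), which both encode matrix proteins, rose, and the median of the 6 was 0.10. The summed signal of the 8 markers on the array was 1254.1 and 1239.7 in shHSF1 Dox HSP990 cells, against 739 and 726.2 in shHSF1 HSP990 cells, and 558.8 to 772 in the shNTC groups. LUM and POSTN made up most of it. The other 6 summed to 122.5 and 113.6 in shHSF1 Dox HSP990 cells, against 113.4 and 135.9 in shHSF1 HSP990 cells, and so overlapped. THY1 and DPT among them lay below the median on all 8 arrays. The LUM call was lost on leaving out any 1 of the 6 arrays that are not shNTC Dox DMSO (0.67 to 0.76, adjusted p = 0.0881 to 0.154), with no filter, no variance trend, its probe sets averaged, only the arrays of the comparison and the ACTB ratio as a covariate (0.53 to 0.71, adjusted p = 0.0544 to 0.112). The POSTN call was lost without the second shHSF1 HSP990 or the second shHSF1 Dox HSP990 array (1.11 and 1.09, adjusted p = 0.0588 and 0.0954) and with only the arrays of the comparison (adjusted p = 0.0558), and its change was 0.51 with its probe sets averaged. The part of these markers in the rise of COL12A1 and COL5A1 was not tested.

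Outside the cell, procollagen is trimmed by proteases and crosslinked. Of 10 such genes tested, 1 was called with the knockdown, beside 2.84% of all genes in either direction. This was ADAMTS3, a protease that removes the amino-terminal propeptide, which was lower. Its signals were 112.8 and 89.2 in shHSF1 Dox HSP990 cells, against 289.3 and 268.5 in shHSF1 HSP990 cells. They were 364.4 and 317.9 in shNTC Dox DMSO cells and 240.3 and 267.7 in shNTC DMSO cells. The arrays with the knockdown lay below all others, and the log2 change with NVP-HSP990 was 0.13. It fell by 1.34 (adjusted p = 0.00386), and by 1.61 against shNTC Dox DMSO cells (adjusted p = 0.00107). The difference of the Dox effects was -1.74 (adjusted p = 0.0153). The knockdown call of ADAMTS3 was lost only with the t-test.

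Of 11 serpins tested besides SERPINH1, 1 was called with the knockdown, higher, and 5 had an unadjusted p under 0.05. Their median log2 change was -0.29 with the knockdown and -0.47 in shHSF1 Dox HSP990 against shNTC Dox DMSO cells. For the difference of the Dox effects it was -0.54. Of all genes, 2.84% were called in either direction with the knockdown and 15.3% had an unadjusted p under 0.05. SERPINA1, or alpha-1-antitrypsin, had signals of 26.3 and 9 in shHSF1 Dox HSP990 cells, against 85.5 and 51.2 in shHSF1 HSP990 cells and 65.7 and 63.2 in shNTC Dox DMSO cells. Its log2 change was -1.34 with the knockdown (adjusted p = 0.0509, not called) and -1.31 against shNTC Dox DMSO cells (adjusted p = 0.0381, called lower). SERPINB7, the called gene, had signals of 477.2 and 437.1 in shHSF1 Dox HSP990 cells, against 194.1 and 202.4 in shHSF1 HSP990 cells. It had 171.1 to 197 in the 4 shNTC arrays. SERPINB7 rose by 1.14 (adjusted p = 0.00516, and 0.052 with only the arrays of the comparison). Of 13 hypoxia-response genes, ADM, the vasodilator peptide adrenomedullin, rose by 1.20 (adjusted p = 0.00428). ANKRD37 fell by 1.22 (adjusted p = 0.0497). The ANKRD37 call was lost in 6 of the 8 fits that left out 1 array (-0.87 without the first shHSF1 HSP990 array, -0.88 without the second shHSF1 Dox HSP990 array) and in 8 other settings, while the list's median was 0.12.

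**Figure D5:**
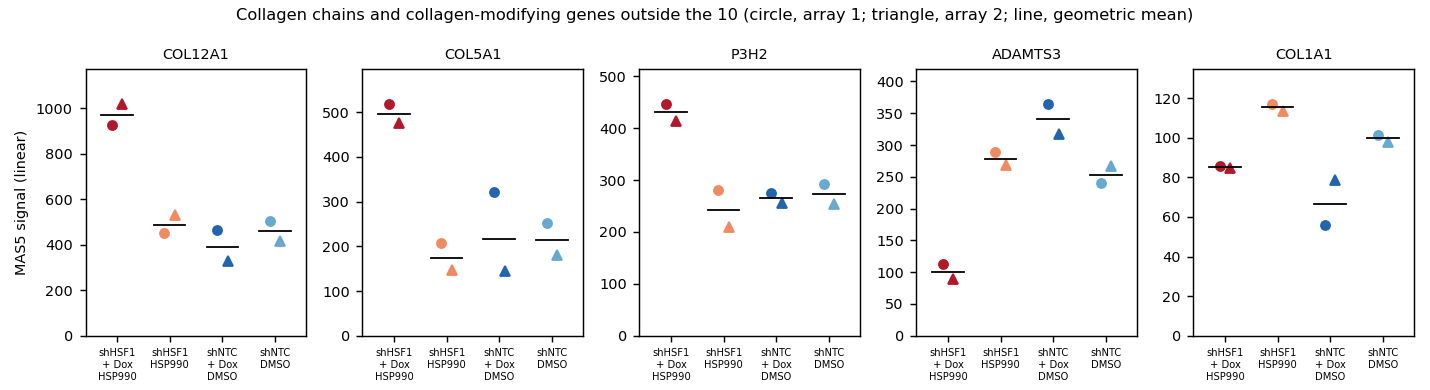
MAS5 signal (linear, from 0) of COL12A1, COL5A1, P3H2, ADAMTS3 and COL1A1 in the 4 groups, with a point per array and a line at the geometric mean of the 2 arrays. With the knockdown COL12A1 (924 and 1017.8), COL5A1 (518.1 and 475.4) and P3H2 (446.4 and 414.7) were above all other arrays and ADAMTS3 (112.8 and 89.2) below them.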

How the data were processed

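The authors computed the deposited signal intensities with MAS5, whose version is not given in the sources used here, on a linear scale, each array having a mean of 150 once 2% of the probe sets at either end are left out. They were used without further normalization. Groups and replicate numbers came from the sample titles. Of 54675 probe sets, 41091 had a single gene symbol in the platform annotation, and each gene was represented by its brightest probe set (mean of log2 signals). Genes that reached the median of the array on 2 or more of the 8 arrays were tested on log2(signal + 16) with limma 3.58.1 (R 4.3.3), fitting 1 mean for each of the 4 groups with a variance trend (4 residual degrees of freedom, 6.36 prior), two-sided tests and Benjamini-Hochberg adjustment over all 12672 genes. For arrays, their number limits the precision. The same fit was run on 24631 single probe sets and was tested on simulated data. The paper's methods name a Student t-test and no test for the arrays in particular.

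Members and gene lists were chosen with earlier results of these data known. Named were all members, HSF1, the 5 genes that correlated best with SERPINH1, and up to 4 called genes of each list; COL1A1, COL1A2, COL3A1, CRTAP, COLGALT1, HSPA5, SERPINA1, the marker genes and the genes with a 3-unit match were added to these with their values known. As alternatives, the fits used 1 or 64 in place of 16, no filter or a stricter one, quantile normalization, centring on the median, averaging a gene's probe sets, no variance trend, fits on a comparison's own arrays, the replicate number as a block, the t-test, or all arrays but 1. The ACTB ratio as a covariate was added after the data were seen. Motifs were searched on both strands of RefSeq promoter windows (GRCh38.p14), where 9 of 10 members had a window and FKBP10 had none. Tables and plots were made with Python 3.11.15 and matplotlib 3.10.9.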

Additional observations from a re-analysis of the deposited data

Results flagged for a closer look

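SERPINH1 stood out because the effect of Dox differed between the cell lines. The change with Dox in shHSF1 cells under NVP-HSP990 minus that in shNTC cells under DMSO was -2.15 on the log2 scale (adjusted p = 0.0116 from limma). Treatment and line differ together between these pairs of groups and cannot be told apart.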

How the results depend on the processing

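The number of members called with the knockdown (2) was 1 with a gene's probe sets averaged and 0 with the methods' t-test. With NVP-HSP990 (1 called) it was 0 with no filter and 0 with the t-test. For shHSF1 Dox HSP990 against shNTC Dox DMSO cells (1 called) it was 0 with 64 added before the log, 0 with no filter, 0 with only the arrays of the comparison and 0 with the t-test. Of the member probe sets called with the knockdown (2), 1 was called with no filter, 1 with only the arrays of the comparison and 0 with the t-test, and of those with NVP-HSP990 (1), 0 with 1 added before the log, 0 with no filter and 0 with the t-test. With 1 array left out, 1 to 2 members were called with the knockdown, 0 to 1 with NVP-HSP990, 0 to 0 with Dox, 0 to 0 for the inhibitor and knockdown against the Dox control and 0 to 1 for the difference of the Dox effects, and 1 to 2 and 0 to 1 probe sets with the knockdown and with NVP-HSP990.

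With the replicate number as a block, the difference of the Dox effects was called for 2 members in place of 1 (P4HA2 added), and P4HA2's second probe set was called with the knockdown (adjusted p = 0.0376). The block changed no other call among the members, and moved the count over all genes with the knockdown from 360 to 752. Deviations from the group mean were compared between arrays of the same number. Their correlation was 0.685 between the shHSF1 groups, 0.464 between the shNTC groups and 0.016 to 0.276 between the other pairs of groups. The titles mark the second array of every group as Repeat 1, and the labels name no shared batch. Not every correlation was above 0.1, and the numbers were not used as pairs in the main results. The highest correlation was between the groups that the knockdown comparison uses, and those under 0.1 were between groups of different lines. The low values are therefore no reason against pairing within the knockdown comparison.

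Directions turned only for changes that were not called. P4HA1 was 0.0032 with the knockdown with the mean of all probe sets, and P3H1 was 0.0084 with the ACTB ratio as a covariate. With 1 array left out, P3H1 ranged from -0.33 to 0.27 with NVP-HSP990 and -0.47 to 0.18 with the knockdown, PLOD3 from -0.75 to 0.25 and -0.26 to 0.75, PPIB from -0.20 to 0.079 with NVP-HSP990, P4HA2 from -0.34 to 0.48 with Dox and SERPINH1 from -0.082 to 0.16 with Dox. The 2 arrays per group limit all of these values, and signals below the array median carry little information on a change.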
